A study of Rattus norvegicus with 12 samples.

Results

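Expression of 10 autophagy and mitophagy genes (Atg13, Becn1, Atg5, Atg7, Map1lc3a, Map1lc3b, Gabarapl1, Sqstm1, Bnip3 and Bnip3l) was examined in the left ventricle and whole blood of rats given amiodarone, a cationic antiarrhythmic drug that accumulates in lysosomes. Every non-control probe named for one of these genes, directly or through a synonym, was taken, which gave 18 of the 41012 probes on an Agilent single-colour rat array. The animals were male Sprague-Dawley (CD) rats of 290 to 320 g, given as 10 weeks old at the start and as 11 weeks old in the sample labels. Amiodarone was given by mouth at 300 mg/kg per day for 10 days, and controls received the vehicle, 1% methylcellulose. Each of the 4 groups (ventricle vehicle, ventricle amiodarone, blood vehicle and blood amiodarone) had 3 pools of rats with 1 array each. The rats in each pool are not listed, so p-values measure the spread between pools only.

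Autophagy encloses cytoplasm in a double membrane that fuses with the lysosome. The Ulk1 complex, which contains Atg13, and the Beclin 1 lipid kinase complex start the membrane, and Atg7 and Atg5 belong to the conjugation systems that attach Atg8-family proteins (Map1lc3a, Map1lc3b and Gabarapl1) to it. Sqstm1 (p62) tethers ubiquitinated cargo to these proteins, and Bnip3 and Bnip3l (Nix) sit in the outer mitochondrial membrane and mark mitochondria for removal (mitophagy). In the heart mitophagy renews the mitochondria of cardiomyocytes, and in maturing red cells Bnip3l is required to clear them.

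Heart arrays had 21233 to 25032 of 43379 non-control spots well above background, and blood arrays 14459 to 15548 in vehicle and 20625 to 21245 in amiodarone pools. Vehicle blood was dimmest, with a 75th percentile of 24.0 ± 2.80 signal units (SD, n = 3), against 73.8 ± 15.6 for treated blood and 143 ± 30.9 and 130 ± 28.2 for vehicle and treated ventricle (SD, n = 3 each). All levels below are log2 signal relative to the 75th percentile of the same array, so that 1 unit is a doubling. The 12 cardiomyocyte markers were all well above background in every ventricle pool, and 8 of the 12 were above background on no vehicle blood array. In bulk RNA, fewer cells of a type and less RNA per cell cannot be told apart.

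Of the 18 probes, 17 have a position on rat build rn4 in the array files, and 6 of them span more than their 60 bases there. Map1lc3b has 3 probes and Sqstm1 has 5, Becn1 and Atg13 have 2 each, and the other 6 genes have 1. An Sqstm1 probe without a position (A_44_P550423) and an Atg13 probe (A_44_P227267) were well above background on no array, which left 16 probes. The first 30 bases of the Map1lc3b probes are shown because these probes moved in opposite directions in blood. They lie on the plus strand at chr19:51852742-51852801 (A_44_P180080), 812 bases further on at chr19:51853554-51854448 (A_44_P430939) and 1421 bases further on at chr19:51854163-51854222 (A_44_P137508).
A_44_P180080: tcctggacaagaccaagttccttgtacctg
A_44_P430939: gcactggctgttacatacatgtcagctctg
A_44_P137508: ggttgcttggtccagcttcttaagaaactg

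The Sqstm1 probes that rose most in the ventricle are not independent of each other. A_44_P367551 (chr10:35751767-35751826, minus strand) ends with the 19 bases with which A_44_P367550 (chr10:35751726-35751785) begins, shown in capitals in bases 31 to 60 of the former and 1 to 30 of the latter. The first 30 bases of A_44_P107199 are shown with them, since this probe differed least between the ventricle groups. It was designed on another Sqstm1 transcript and lies 8094 bases upstream of A_44_P367550, at chr10:35759718-35759879.
A_44_P367551: gaaagtgcatgAGAAGAGAGTCTGAGTGTG
A_44_P367550: AGAAGAGAGTCTGAGTGTGcacatgctgac
A_44_P107199: tgatagcttctctcatagccgctggcttcg

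RefSeq promoters (250 bases before to 50 bases after the annotated start, build GRCr8) were at hand for 7 of the 10 genes. The 4 of genes that rose in the ventricle are printed, for Atg13 (chr3:98136692-98136991, minus strand), Gabarapl1 (chr4:164666082-164666381, plus strand), Sqstm1 (chr10:35037701-35038000, minus strand) and Bnip3 (chr1:203154913-203155212, minus strand). Capitals mark matches on either strand to CACGTG (the E-box at the centre of the site bound by TFEB), ACGTG (the core of the hypoxia response element), TGACNNNGC (the core of the antioxidant response element) or GTAAACA (a FoxO core). ACGTG lies within CACGTG, so a CACGTG match also counts as ACGTG.
Atg13: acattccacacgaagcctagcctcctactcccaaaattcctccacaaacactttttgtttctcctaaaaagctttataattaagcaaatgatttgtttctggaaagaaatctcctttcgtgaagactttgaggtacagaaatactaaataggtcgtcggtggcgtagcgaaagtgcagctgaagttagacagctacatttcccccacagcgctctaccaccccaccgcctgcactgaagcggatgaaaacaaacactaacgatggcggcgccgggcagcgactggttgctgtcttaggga
Gabarapl1: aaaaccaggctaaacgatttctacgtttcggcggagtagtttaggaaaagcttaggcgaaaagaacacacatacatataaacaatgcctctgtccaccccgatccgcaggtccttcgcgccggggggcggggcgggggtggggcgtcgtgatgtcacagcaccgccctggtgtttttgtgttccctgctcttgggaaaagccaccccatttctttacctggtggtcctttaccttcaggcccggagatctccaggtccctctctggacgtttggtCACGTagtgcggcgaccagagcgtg
Sqstm1: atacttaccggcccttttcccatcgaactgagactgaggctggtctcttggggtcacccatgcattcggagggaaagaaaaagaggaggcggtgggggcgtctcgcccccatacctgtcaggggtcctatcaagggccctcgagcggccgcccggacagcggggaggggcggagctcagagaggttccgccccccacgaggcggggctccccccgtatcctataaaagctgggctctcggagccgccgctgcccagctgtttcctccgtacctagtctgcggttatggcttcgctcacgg
Bnip3: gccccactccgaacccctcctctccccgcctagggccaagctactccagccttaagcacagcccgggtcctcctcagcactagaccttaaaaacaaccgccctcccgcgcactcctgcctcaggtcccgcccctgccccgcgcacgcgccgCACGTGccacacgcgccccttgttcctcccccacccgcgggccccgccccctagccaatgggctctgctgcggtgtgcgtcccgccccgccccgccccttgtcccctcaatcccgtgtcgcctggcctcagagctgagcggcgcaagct
The Bnip3 window held CACGTG at positions -99 to -94, with 0 as the annotated start, and the Gabarapl1 window held ACGTG at positions 25 to 29. No searched motif was found in the Sqstm1 or Atg13 window. Among the other genes, Atg5 had CACGTG at positions -19 to -14, Map1lc3b had TGACNNNGC at positions -8 to 0, and Atg7 had none. Among 33469 promoters of this length, 6.42% held CACGTG, 19.3% ACGTG, 12.1% TGACNNNGC and 3.78% GTAAACA, which none of the 7 windows held.

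The first comparison asked which of these genes differed between amiodarone and vehicle in the left ventricle. Of the 10 genes tested, 4 rose and 0 fell: Bnip3, Sqstm1, Gabarapl1 and Atg13. Over all 17468 features tested, 8.56% were past the threshold (limma, Benjamini-Hochberg adjusted p below 0.05), 4.33% higher and 4.23% lower. The median difference of the 10 genes was 0.50, against 0.02 over all features. At an unadjusted p below 0.05, 5 were higher and 0 lower by limma, as against 25.2% of all features in either direction. The amiodarone and vehicle pools did not overlap for 5 of the 10 genes, as for 32.6% of all features. The genes that rose were 2 of the 3 cargo and mitochondrial receptors, 1 of the 3 Atg8 proteins and 1 of the 2 initiation genes, and neither conjugation gene passed the test.

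Bnip3 (A_44_P472442, chr1:198683435-198683494) had levels of 4.36, 4.33 and 4.30 in the vehicle ventricle and 6.02, 5.80 and 5.41 with amiodarone. Every amiodarone pool was above every vehicle pool, and the lowest amiodarone pool lay well clear of the vehicle pools. The difference was 1.42 (SE 0.18, 95% confidence interval 1.00 to 1.83), a 2.67-fold rise (adjusted p = 0.00461). It was the only one of the 10 genes that kept its call in every other processing tried, with the adjusted p at most 0.0443.

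Sqstm1, by its brightest probe A_44_P367550, had levels of 3.97, 3.95 and 4.30 in vehicle and 5.04, 5.07 and 5.40 in amiodarone ventricle. The groups were separate by more than the range within either. The rise was 1.10 (SE 0.17, interval 0.70 to 1.49), or 2.14-fold (adjusted p = 0.0103). With every probe tested as its own feature, where 7.41% of probes passed, the overlapping A_44_P367551 rose by 1.06 (SE 0.16, adjusted p = 0.0101). A_44_P367556, which shares no bases with them, differed by 0.86 (SE 0.23, adjusted p = 0.0653), from 2.46, 2.58 and 2.84 to 3.05, 3.55 and 3.87. At A_44_P107199 the difference was 0.11 (SE 0.18, interval -0.31 to 0.53, adjusted p = 0.757), with overlapping groups at 1.55, 1.55 and 1.73 in vehicle and 1.43, 1.69 and 2.01 in amiodarone pools. The intervals of this probe and of A_44_P367550 do not overlap, but the difference between probes was not tested. Bnip3l (A_43_P13090, chr15:46516681-46516740) measured 5.05, 5.23 and 5.56 in vehicle and 5.60, 5.33 and 5.42 in amiodarone ventricle. These groups overlapped, with a difference of 0.17 (SE 0.17, interval -0.24 to 0.58, adjusted p = 0.588).

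**Figure D1:**
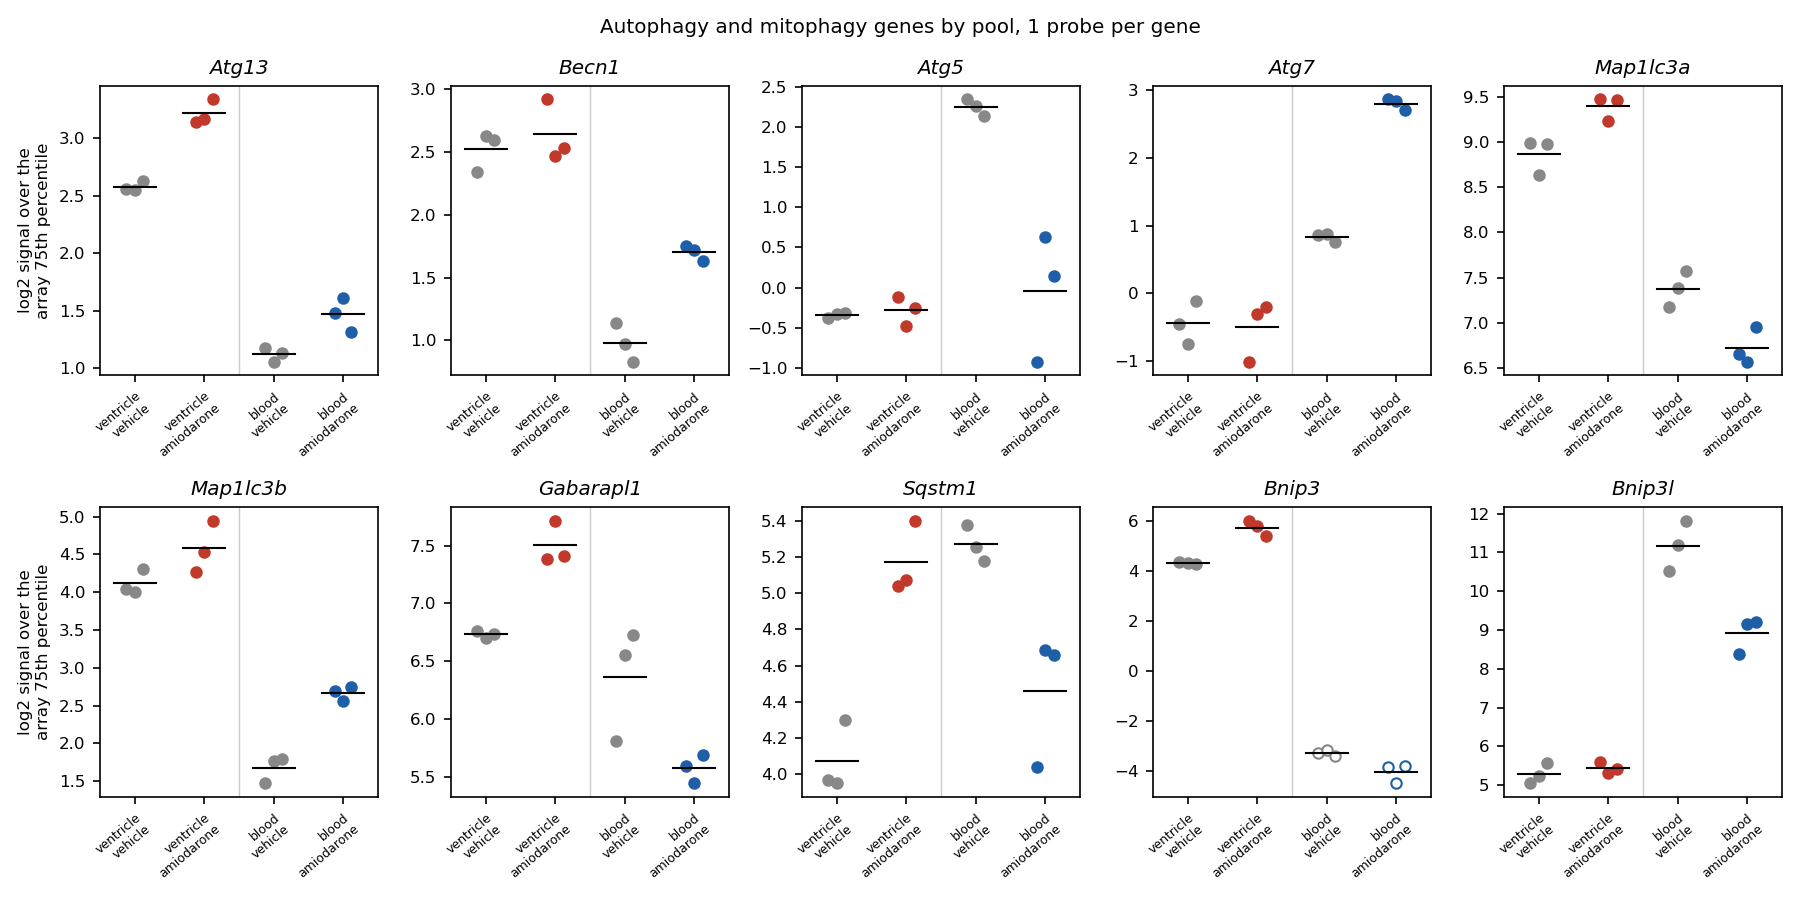
Log2 signal relative to the array's 75th percentile (y axis, a separate scale for each gene) in the 3 pools of each of the 4 groups (x axis), for 1 probe of each gene. Points are pools, open where the probe was not well above background, and lines are group means. Each gene is shown by its brightest ventricle probe, which for Map1lc3b is A_44_P137508, higher in amiodarone than in vehicle blood. The blood comparison used another Map1lc3b probe, A_44_P180080, which was lower. Bnip3 rises from a mean of 4.33 to 5.75 in the ventricle and is open in all blood pools, and Bnip3l falls from 11.2 to 8.92 in blood.

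Among the Atg8 proteins Gabarapl1 (A_44_P1007933, chr4:166811168-166811227), which acts in later steps of autophagosome maturation, measured 6.77, 6.70 and 6.73 in vehicle and 7.38, 7.72 and 7.41 in amiodarone ventricle. The vehicle pools were almost equal and all amiodarone pools lay above them. The rise was 0.77 (SE 0.15, interval 0.43 to 1.11), or 1.70-fold (adjusted p = 0.0209). Map1lc3a (A_44_P404824, chr3:145760456-145760515), which encodes LC3A, had 8.99, 8.63 and 8.98 in vehicle and 9.47, 9.24 and 9.47 in amiodarone pools. Its groups did not overlap, but the difference of 0.53 (SE 0.16, interval 0.16 to 0.90) missed the threshold (adjusted p = 0.0893). Map1lc3b, which encodes LC3B, differed by 0.47 at A_44_P137508 (SE 0.20, adjusted p = 0.205), its brightest ventricle probe. The other 2 probes gave 0.50 (SE 0.14) and 0.51 (SE 0.17), neither past the threshold with every probe tested (adjusted p = 0.0688 and 0.121). At A_44_P137508 the groups overlapped and at the other 2 they did not.

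The initiation gene Atg13 is carried on the array as Harbi1l, which RefSeq lists as a synonym of Atg13, and its values rest on that synonym. It measured 2.56, 2.55 and 2.63 in vehicle and 3.15, 3.17 and 3.34 in amiodarone ventricle at A_44_P956951 (chr3:76055701-76055760). The groups were separate, with a rise of 0.64 (SE 0.13, interval 0.34 to 0.95), or 1.56-fold (adjusted p = 0.0270). Becn1, which encodes Beclin 1, differed by 0.12 (SE 0.17) and 0.03 (SE 0.18) at its 2 probes, with overlapping groups. The conjugation genes Atg5 and Atg7 differed by 0.06 (SE 0.14, interval -0.28 to 0.40) and -0.07 (SE 0.26, interval -0.68 to 0.54), also with overlapping groups.

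With no scaling, with no filter on dim probes or on the first slide alone, Sqstm1 (adjusted p = 0.119, 0.0838 and 0.0614), Gabarapl1 and Atg13 missed the threshold. Leaving out 1 ventricle pool at a time left 2 to 4 of the 10 genes past the threshold. Bnip3 and Sqstm1 passed in all 6 of these fits (adjusted p at most 0.0280 and 0.0483). Gabarapl1 missed without vehicle pool 1, 2 or 3 (adjusted p = 0.0706, 0.0804 and 0.0870) or amiodarone pool 2 (0.0770), and Atg13 passed only without amiodarone pool 1 and had adjusted p up to 0.0978 otherwise. Pools 1 and 2 of each group shared a slide and pool 3 was on another. With slide as a block the same 4 genes passed, and the differences on the first and second slide were 1.56 and 1.12 for Bnip3, 1.10 and 1.10 for Sqstm1, 0.81 and 0.67 for Gabarapl1, and 0.61 and 0.72 for Atg13.

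Markers of other cells also differed in the ventricle. The summed signal of the red cell list was 0.0309% to 0.0387% of all signal in vehicle and 0.00789% to 0.00921% in amiodarone pools, with 5 of its 10 tested genes lower. Of this list 10 genes were above background on all vehicle arrays and 7 on all amiodarone arrays. Some thus entered the test through the vehicle arrays alone, which favours a lower value. Fibroblast markers made up 0.0863% to 0.138% and 0.0467% to 0.0650% (4 of 7 lower), and monocyte and macrophage markers 0.0117% to 0.0199% and 0.0202% to 0.0250% (2 of 8 higher). Cardiomyocyte markers held 3.58% to 4.12% in vehicle and 3.35% to 3.56% in amiodarone pools, with 0 of 12 past the threshold by limma and 1 lower at an unadjusted p below 0.05. Over all features 4.33% were higher and 4.23% lower. The part of these markers in the autophagy results was not tested.

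Outside the 10 genes, 76 genes of 8 autophagy-related lists were tested in the ventricle, and 6 rose and 2 fell (10.5%, near the share over all features). Their median difference was 0.13. The lists include FoxO atrophy genes, the list from which Eif4ebp1 and Klf15 below come. The rises were Sesn1 (1.36, SE 0.19, adjusted p = 0.00626), a stress-induced inhibitor of mTORC1 signalling; Eif4ebp1 (1.18, SE 0.17, adjusted p = 0.00857), a translation repressor and mTORC1 substrate; Klf15 (1.13, SE 0.15, adjusted p = 0.00552), a metabolic transcription factor; Wdr45 (0.72, SE 0.16, adjusted p = 0.0358) and Zfyve1 (0.67, SE 0.15, adjusted p = 0.0403), which bind the phosphoinositide of the growing membrane. The mitophagy kinase Pink1 was the sixth, at 0.58 (SE 0.13, adjusted p = 0.0360). Rilp, a Rab7 effector, fell by 0.78 (SE 0.15, adjusted p = 0.0247), and Stbd1, a receptor for glycogen, fell by 0.62 (SE 0.14, adjusted p = 0.0390). No gene of the initiation list (11 tested) or of the conjugation list (7 tested) passed by limma; at an unadjusted p below 0.05 the former had 1 higher and 2 lower and the latter 0. Ulk1, the initiating kinase, had -0.82 (SE 0.29, adjusted p = 0.135) and Atg4b, a protease that trims Atg8 proteins, -0.26 (SE 0.13, adjusted p = 0.258).

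**Figure D2:**
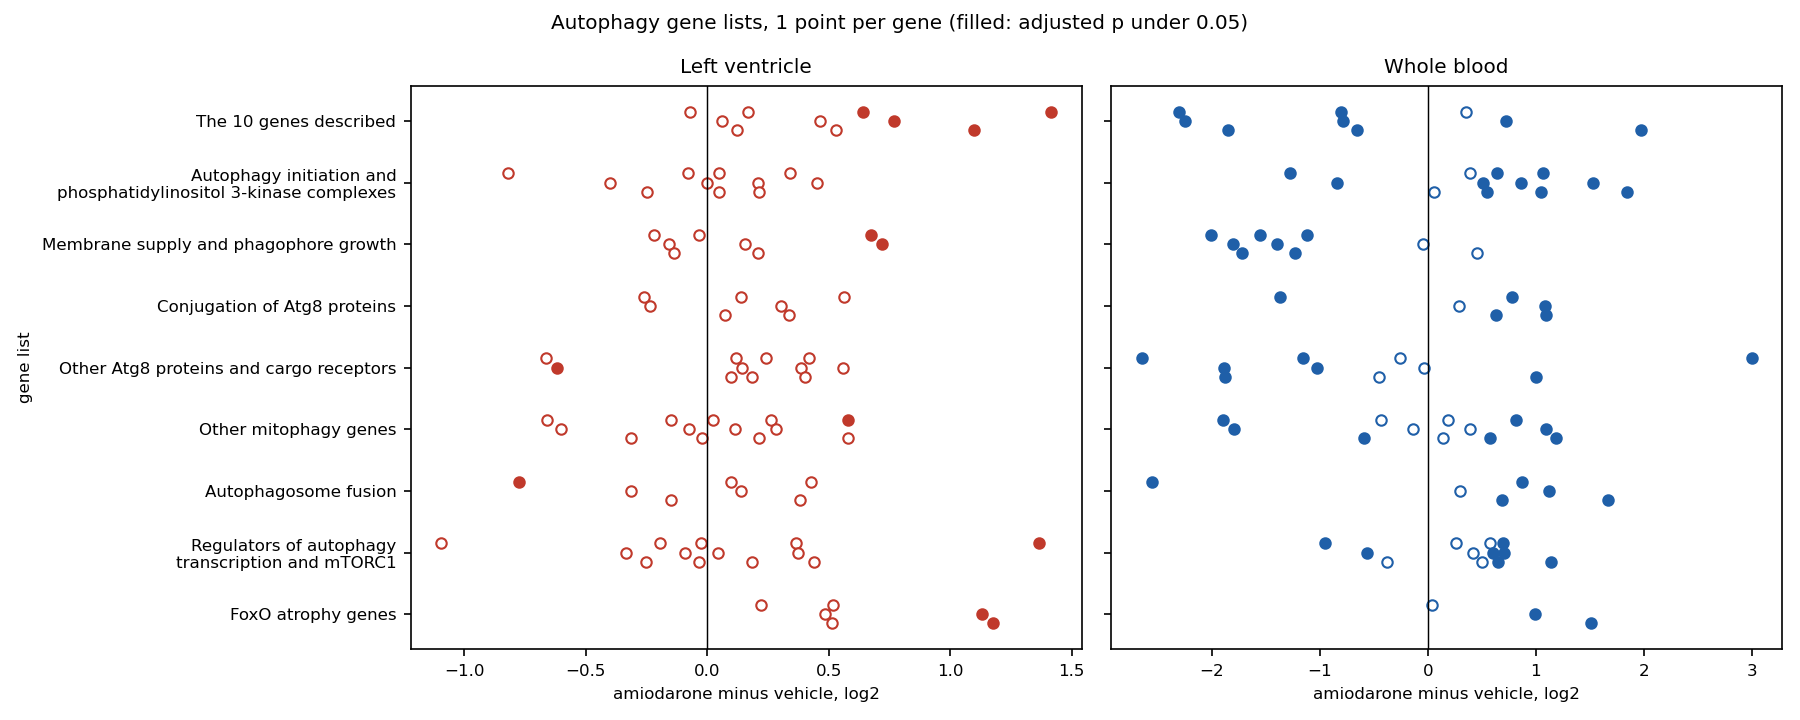
Amiodarone minus vehicle difference on the log2 scale (x axis) for the 10 genes and for each of 8 autophagy-related lists (y axis) in the left ventricle and whole blood; the x axes differ. Each point is 1 gene tested, by its brightest probe in that tissue, filled where adjusted p is below 0.05. In the ventricle 4 of the 10 genes are filled, all to the right of 0, and in blood the membrane supply list has 7 filled points, all to the left.

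For each gene that rose in the ventricle, the named genes with the most similar profile were listed by Pearson correlation over the 6 ventricle arrays, which includes the difference between both groups. Features that kept the name in the array file, and LOC or RGD names, were left out. Closest to Bnip3 were Hebp1, Rhbdl3 and Klf15 (r = 0.998, 0.997 and 0.997). Sqstm1 was closest to Fmo1, Wdr45 and Abhd12 (0.996, 0.995 and 0.994). Gabarapl1 was closest to Recql, C4h2orf42 and Fzd9 (0.999, 0.998 and 0.998), and Atg13 to Kcnj5, Rpl15 and Mtarc2 (0.998, 0.998 and 0.996). The candidates were a part of the 17468 features tested, and with 6 arrays values of this size describe these arrays only.

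The second comparison made the same contrast in whole blood, where Bnip3 was well above background on none of the 6 arrays and was not tested. By the brightest probe of each of the other 9 genes, 6 were lower and 2 higher with amiodarone. Atg5, Bnip3l, Sqstm1, Gabarapl1 and Map1lc3a fell, and Atg7 and Becn1 rose. The sixth, Map1lc3b, was lower at its brightest probe A_44_P180080 but higher at its other 2 probes, and is given no direction. The background in blood was large, since 67.4% of the 15668 features tested passed, 40.3% higher and 27.1% lower. The median difference of the 9 genes was -0.79, against 0.44 over all features. All features include some that entered the test through the amiodarone arrays alone, where more spots were above background, which favours a higher value. The 9 genes were well above background on all 6 arrays at the probes used. How far this moved the median was not tested. The groups did not overlap for any of the 9 genes, as for 73.7% of all features. With normexp background correction 1422 of all features passed in place of 10559, and of the 9 genes only Atg5 did (adjusted p = 0.0254). This setting also adds an offset of 50 signal units, more than the mean 75th percentile of vehicle blood (24.0). The effects of the correction and of the offset were not tested apart.

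The median over all features in blood depended on the scaling, at 0.08 with normexp correction, 0.73 when arrays were scaled to their median and 2.04 when not scaled. Scaled to the array median, Gabarapl1 and Map1lc3a missed the threshold (adjusted p = 0.215 and 0.259). With no scaling Sqstm1, Gabarapl1 and Map1lc3a were higher, not lower, with amiodarone (0.79, 0.81 and 0.95), and the differences of Bnip3l and Atg5 shrank to -0.65 and -0.70 and missed the threshold (adjusted p = 0.116 and 0.0788). With normexp correction Bnip3l had -2.32 (adjusted p = 0.0820), and Atg5 kept its call at -1.02. Relative to the median of all features under the same setting, the 5 genes that fell were below it under all 7 scalings and background settings. Unlike these genes, some of the features behind that median entered the test through the amiodarone arrays alone. Settings that only scale whole arrays shift all features alike, so the distance to this median is the same in them by construction. It could differ only with normexp correction, quantile scaling and the authors' deposited values. Bnip3l lay between -2.69 and -1.73 of that median, Atg5 between -2.81 and -1.10, Sqstm1 between -1.25 and -0.82, Gabarapl1 between -1.22 and -0.86, and Map1lc3a between -1.09 and -0.69. Atg7 lay 1.07 to 1.54 above it and Becn1 0.18 to 0.29 above it.

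The mitochondrial receptor Bnip3l measured 10.53, 11.18 and 11.82 in vehicle blood and 8.39, 9.16 and 9.21 with amiodarone. No amiodarone pool reached the lowest vehicle pool, and the vehicle pools themselves spread widely. The difference was -2.25 (SE 0.37, interval -3.13 to -1.38), a 4.77-fold fall (adjusted p = 0.00228). Sqstm1 fell from 5.37, 5.25 and 5.18 to 4.04, 4.68 and 4.66 at A_44_P367550, a difference of -0.81 (SE 0.22, adjusted p = 0.0154). The other 3 Sqstm1 probes differed by -0.93 (SE 0.20), -0.78 (SE 0.25) and -0.48 (SE 0.24), and the last, A_44_P367556, had overlapping groups and missed the threshold (adjusted p = 0.115 with every probe tested, where 66% of probes passed). In blood A_44_P107199 moved with the other probes of the gene.

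The conjugation genes moved apart. Atg7, the E1-like enzyme of both conjugation systems (A_44_P335514, chr4:150854179-150866191), measured 0.85, 0.87 and 0.76 in vehicle and 2.87, 2.84 and 2.71 in amiodarone blood. The pools of each group were close together and the groups far apart, with a rise of 1.98 (SE 0.16, interval 1.60 to 2.35), or 3.94-fold (adjusted p = 0.000924). Atg5, which is joined to Atg12 in the complex that directs lipidation (A_44_P761066, chr20:48366259-48366318), measured 2.35, 2.27 and 2.14 in vehicle and -0.93, 0.63 and 0.15 in amiodarone blood. The vehicle pools were close together and the amiodarone pools scattered, with 1 of them lowest by far. The difference was -2.30 (SE 0.38, interval -3.19 to -1.42), a 4.94-fold fall (adjusted p = 0.00222).

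Both initiation genes had higher means in treated blood. Becn1 (A_44_P442867, chr10:90318654-90319457) measured 1.13, 0.97 and 0.83 in vehicle and 1.75, 1.72 and 1.63 in amiodarone pools, a rise of 0.72 (SE 0.17, adjusted p = 0.00823), and its second probe rose by 0.64 (SE 0.19, adjusted p = 0.0208 with every probe tested). Atg13 had 1.17, 1.05 and 1.13 in vehicle and 1.48, 1.61 and 1.32 in amiodarone pools. These groups did not overlap, but the difference of 0.35 (SE 0.17) missed the threshold (adjusted p = 0.0990). The median over all features was 0.44, and relative to the median under the same setting Atg13 lay at -0.19 to 0.09 over the 7 settings.

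Gabarapl1 measured 5.82, 6.56 and 6.73 in vehicle and 5.60, 5.45 and 5.70 in amiodarone blood, so that vehicle pool 1 lay close to the treated pools. The difference was -0.79 (SE 0.26, adjusted p = 0.0313). It passed without that pool (-1.06, adjusted p = 0.00662) and missed the threshold without any 1 of the other 5 (adjusted p up to 0.0886). Map1lc3a fell from 7.18, 7.39 and 7.57 to 6.65, 6.57 and 6.95, a difference of -0.66 (SE 0.20, adjusted p = 0.0209), and missed without vehicle pool 2 or amiodarone pool 1 or 2 (adjusted p = 0.0512, 0.0667 and 0.0649). With slide as a block the same 8 genes passed. On the first and second slide the differences were -2.46 and -2.00 for Atg5, -2.08 and -2.61 for Bnip3l, 1.99 and 1.95 for Atg7, -0.95 and -0.52 for Sqstm1, -0.66 and -1.03 for Gabarapl1, -0.67 and -0.62 for Map1lc3a, and 0.68 and 0.81 for Becn1.

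**Figure D3:**
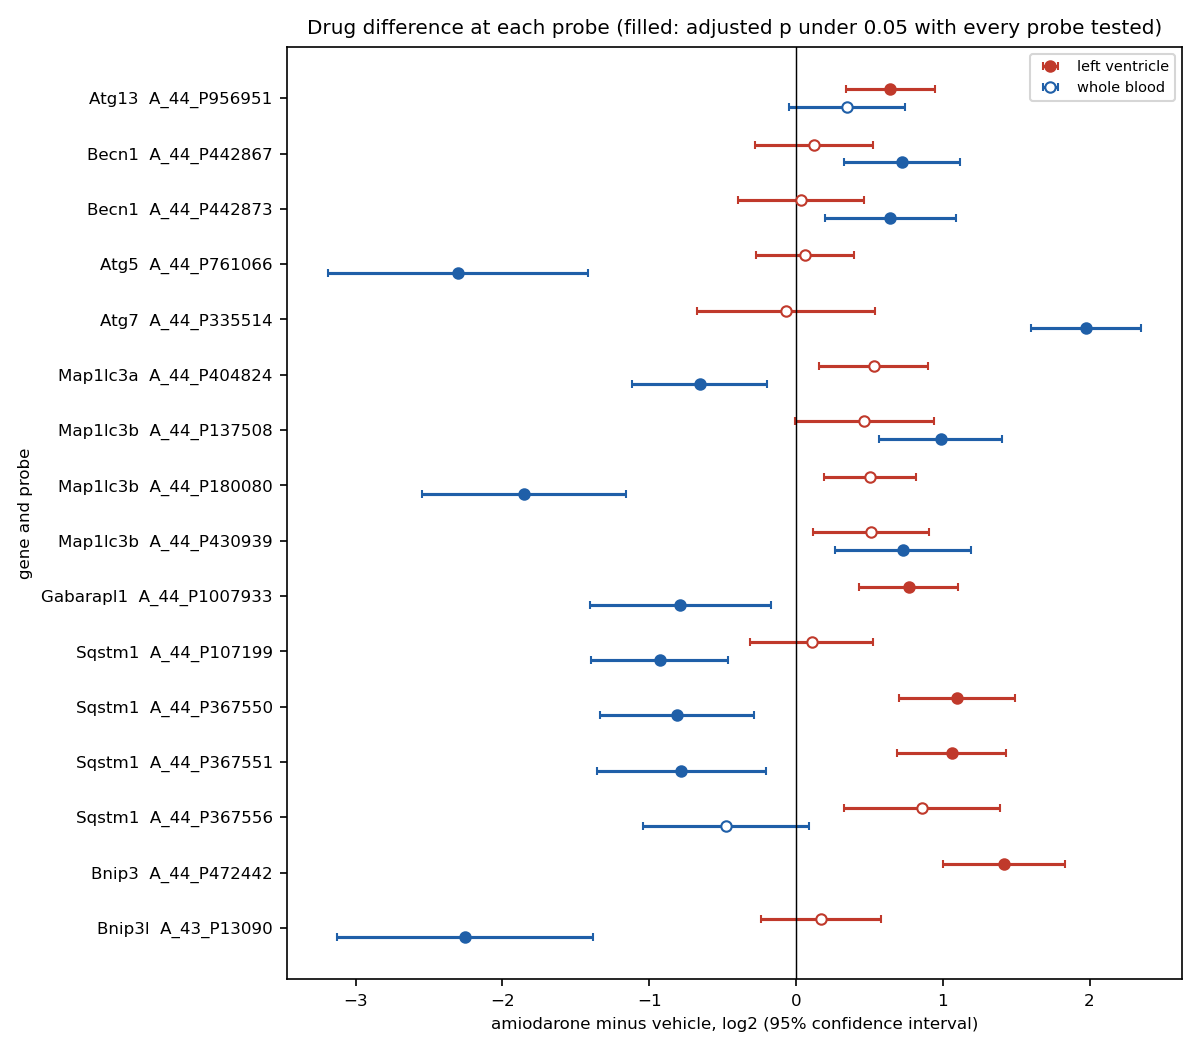
Amiodarone minus vehicle difference on the log2 scale (x axis) at each of the 16 probes above background (y axis), in the left ventricle (red) and whole blood (blue). Bars are 95% confidence intervals and filled points have adjusted p below 0.05 with every probe tested. Of the 3 Map1lc3b probes, 1 lies to the left of 0 in blood at -1.85 and the others to the right at 0.99 and 0.73.

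The Map1lc3b probes disagreed in blood. At A_44_P180080 the levels were 7.99, 8.18 and 8.69 in vehicle and 5.94, 6.46 and 6.89 in amiodarone blood, a difference of -1.85 (SE 0.30, interval -2.55 to -1.16; adjusted p = 0.00208). At A_44_P137508 they were 1.47, 1.77 and 1.79 in vehicle and 2.69, 2.56 and 2.75 in amiodarone blood, a rise of 0.99 (SE 0.18, interval 0.57 to 1.41; adjusted p = 0.00332 with every probe tested). A_44_P430939 went from 1.92, 2.25 and 2.42 to 2.94, 2.79 and 3.05, a rise of 0.73 (SE 0.20, interval 0.27 to 1.19; adjusted p = 0.0149). At none of the 3 probes did the groups overlap, and the intervals of the first probe and the other 2 lie on opposite sides of 0. The mean of the 3 probes gave -0.05 (adjusted p = 0.851), so no direction is given for the gene in blood. In the ventricle the same 3 probes differed by 0.50, 0.47 and 0.51.

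**Figure D4:**
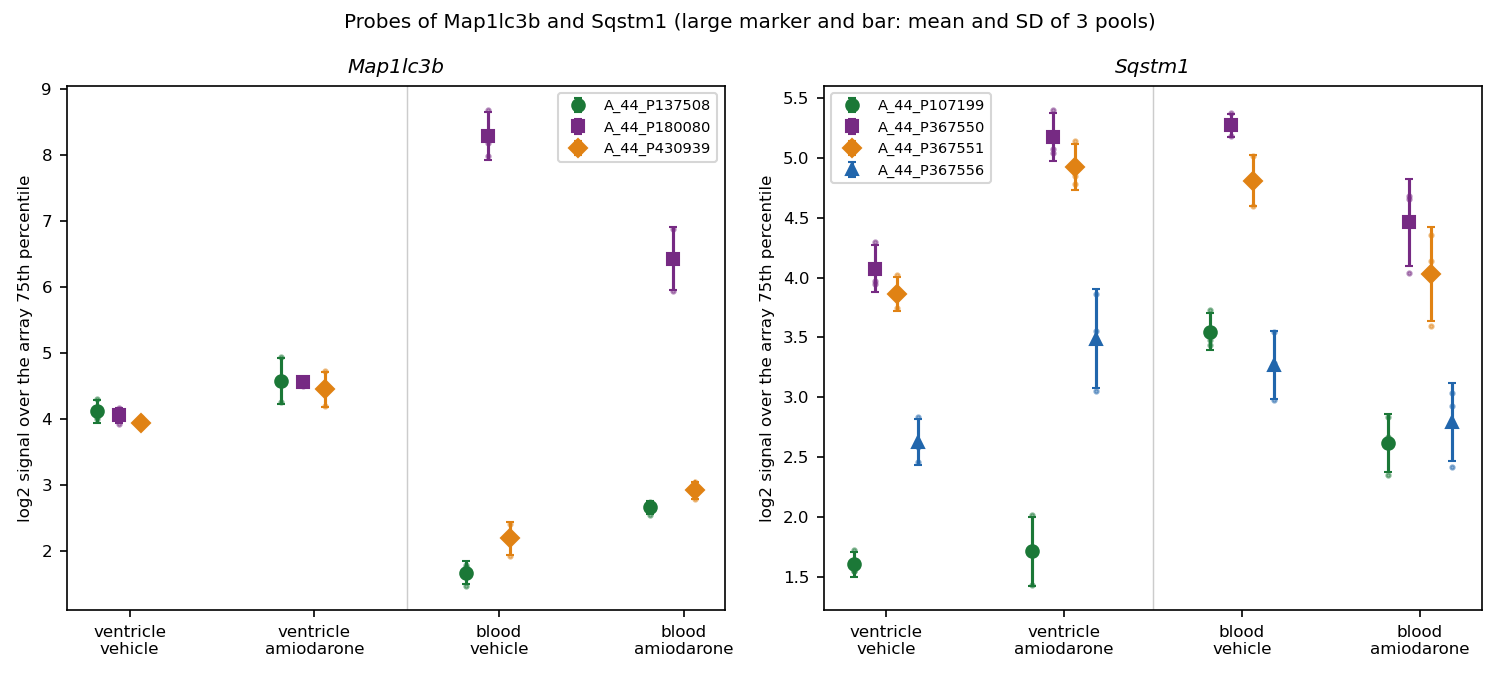
Log2 signal relative to the array's 75th percentile (y axis) of the Map1lc3b probes (left) and the Sqstm1 probes above background (right) in the 4 groups (x axis); large markers and bars are the mean and SD of 3 pools and small points the pools. Levels of different probes are not comparable, but their course is: in blood A_44_P180080 falls from 8.28 to 6.43 while A_44_P137508 rises from 1.68 to 2.66, and in the ventricle A_44_P107199 of Sqstm1 goes from 1.61 to 1.71 while A_44_P367550 goes from 4.07 to 5.17.

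Cell type markers moved with the drug in blood. Red cell and reticulocyte markers made up 2.67% to 3.08% of all signal in vehicle and 0.982% to 1.56% in amiodarone pools, all 13 on the array being above background in vehicle, and 12 of 13 were lower (median -2.27). Neutrophil markers went from 0.0140%-0.0186% to 0.0802%-0.144% (7 of 9 higher, median 2.04). Platelet markers went from 0.350%-0.443% to 0.912%-1.29% (4 of 5 higher, median 0.91). T cell markers went from 0.0465%-0.0549% to 0.100%-0.116% (5 of 8 higher, median 0.64). Monocyte and macrophage markers went from 0.0110%-0.0144% to 0.0388%-0.0504% (5 of 8 higher, 1 lower). Of 6 B cell markers 0 passed by limma, also at an unadjusted p below 0.05. Over all features 40.3% were higher and 27.1% lower, with a median of 0.44. Above background on all vehicle and all amiodarone arrays were 7 and 9 neutrophil, 5 and 8 monocyte and macrophage, and 7 and 8 T cell markers. Some of these markers thus entered the test through the amiodarone arrays alone, which favours a higher value in the counts and medians. The signal shares cover all markers on the array. The part of these markers in the differences of the autophagy genes was not tested.

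Of 70 other autophagy-related genes tested in blood, 29 were higher and 21 lower (71.4%, near the 67.4% over all features). Among the 29 were Nrbf2, Wdfy3, Tbk1 and Zkscan3, well above background on all 3 amiodarone arrays and no vehicle array. They entered the test through the amiodarone arrays alone, which favours a higher value. In the membrane supply list 7 of 9 were lower and 0 higher by limma, also at an unadjusted p below 0.05, with a median of -1.40. They included Wipi2 (-1.80, SE 0.22) and Wipi1 (-1.55, SE 0.19), which read the membrane phosphoinositide, and Atg2b (-1.72, SE 0.21), a lipid transfer protein. Zfyve1 differed by -1.24 (SE 0.18) in this list. Among cargo receptors and other Atg8 proteins Ncoa4, the ferritin receptor, fell by 2.65 (SE 0.32), Gabarapl2 fell by 1.89 (SE 0.30) and Calcoco2 fell by 1.88 (SE 0.23). Wdfy3, a large adaptor for aggregates, was well above background on all 3 amiodarone arrays and no vehicle array. In the initiation list 8 of 12 were higher, Nrbf2 among them, and 2 lower, Vmp1 (1.84, SE 0.20) having the smallest p. In the conjugation list 4 of 6 were higher, among them Atg4b (1.10, SE 0.17) and Atg16l2 (1.09, SE 0.18), and Atg12, the partner of Atg5, was the only one lower (-1.37, SE 0.31).

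The third comparison tested whether the drug difference itself differed between ventricle and blood, in 1 fit of all 12 arrays, as the ventricle difference minus the blood difference. The fit took the 12 arrays as independent and gave each gene 1 spread for all 4 groups. Spreads could be unequal: the SD of Atg5 was 0.036 in vehicle ventricle and 0.80 in amiodarone blood. The adjusted p-values rest on these assumptions. By the brightest probe of each of the 9 genes tested in both tissues, it was higher for 6 and lower for 2. Over 13044 features 51.3% passed, 18.9% higher and 32.4% lower, and the median was -0.43 against 1.55 for the 9 genes. This median also includes features well above background in only 1 treatment group of a tissue. Bnip3l (2.42, SE 0.43, adjusted p = 0.00131) and Atg5 (2.37, SE 0.42, adjusted p = 0.00134) had the largest values. Map1lc3b had 2.36 at A_44_P180080 (SE 0.33, adjusted p = 0.000414) but -0.52 (SE 0.27, adjusted p = 0.119) and -0.22 (SE 0.25, adjusted p = 0.477) at its other probes, and 0.54 for the mean of the 3 (adjusted p = 0.0858), so no direction is given for this gene. For Bnip3l and Atg5 this came from the fall in blood, with no call in the ventricle. Sqstm1 (1.91, SE 0.28, adjusted p = 0.00048) and Gabarapl1 (1.55, SE 0.30, adjusted p = 0.0020) rose in the ventricle and fell in blood. All 4 Sqstm1 probes above background passed with every probe tested (49.8% of all probes did), and A_44_P107199 gave 1.04 (SE 0.26, adjusted p = 0.00787). Map1lc3a gave 1.18 (SE 0.24, adjusted p = 0.00259). Atg7 was lower, at -2.05 (SE 0.31, adjusted p = 0.000579), as was Becn1, at -0.60 (SE 0.23, adjusted p = 0.0457). Leaving out single pools, the Becn1 call was lost 9 of 12 times, at most to an adjusted p of 0.107 (without ventricle amiodarone pool 2), and it was lost under 6 of 11 other settings (adjusted p up to 0.606). Relative to the median of all features Becn1 lay at -0.18 to -0.13. Atg13 differed by 0.29 (SE 0.19, interval -0.13 to 0.71, adjusted p = 0.211). With no scaling the median of all features was -2.16, and Gabarapl1, Map1lc3a and Atg13 turned to -0.18, -0.55 and -1.44. Relative to the median under the same setting they lay above it under all 7 settings, at 1.54 to 1.98, 1.10 to 1.61 and 0.46 to 0.79. Here too only normexp correction, quantile scaling and the authors' values could change these distances.

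The last comparison set vehicle ventricle against vehicle blood. The tissue cannot be told apart here from the extraction kit (RNeasy MiniKit for heart, PAXgene for blood) or from the slides, which held 1 tissue each. Bnip3, Becn1, Map1lc3a and Atg13 were higher in the ventricle, Bnip3l, Atg5, Atg7 and Sqstm1 lower, and Gabarapl1 missed the threshold. Map1lc3b, lower by its brightest probe, is given no direction because its probes disagreed. By the brightest probe 9 of the 10 genes passed, Bnip3 having entered the test through the ventricle alone, and of all 18531 features 81.5% did, 45.5% higher and 36% lower. The groups did not overlap for 9 of the 10 genes, as for 83.6% of all features.

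The 2 mitochondrial receptors were the extremes of the 10 genes in this contrast. Bnip3 had a mean of 4.33 in the ventricle and -3.29 in blood, where it was not well above background, and was at least 53.7-fold higher in the ventricle. This bound takes as the blood level of each array the dimmest signal called well above background there, or its own where that was higher. It holds for the reported scaling only. The Bnip3 log2 difference was 10.2 without scaling and 4.15 after normexp correction, the latter a smaller fold than the bound. Bnip3l was 5.28 in the ventricle and 11.2 in blood, a difference of -5.90 (SE 0.33, interval -6.68 to -5.11; adjusted p = 2.5e-06), or 59.5-fold lower. It was lower under every other scaling and background setting too, but by a size that depended on the setting, at -3.34 without scaling, -3.80 by the authors' values and -4.64 after normexp correction. Of the initiation genes, Becn1 was higher in the ventricle by 1.54 (SE 0.17) and Atg13 by 1.46 (SE 0.14). Of the conjugation genes Atg5 was lower by -2.60 (SE 0.15) and Atg7 by -1.27 (SE 0.20). Atg5 had -0.043 without scaling (adjusted p = 0.892), -1.08 by the authors' values and -1.33 after normexp correction. Map1lc3a was higher by 1.49 (SE 0.19), and Gabarapl1 differed by 0.37 (SE 0.25, adjusted p = 0.213), with overlapping groups.

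For Map1lc3b the probes again disagreed between tissues. A_44_P180080 was lower in the ventricle (-4.22, SE 0.22), while A_44_P137508 (2.44, SE 0.18) and A_44_P430939 (1.75, SE 0.18) were higher there, all 3 past the threshold with every probe tested (80.8% of all probes were), and the mean of the 3 gave -0.01 (adjusted p = 0.954). Sqstm1 was lower at all 4 probes, from -1.94 (SE 0.16) at A_44_P107199 to -0.64 (SE 0.20) at A_44_P367556, and by -1.20 (SE 0.17) at A_44_P367550. The sign of Sqstm1 and Atg7 depended on the scaling: with no scaling they had 1.36 and 1.29, and by the authors' values 0.46 and 0.26 (adjusted p = 0.0536 and 0.237). The median of all features was 2.93 and 2.04 under these settings, against 0.37. It includes features well above background in only 1 of the tissues. Relative to the median under the same setting, Atg7 lay at -1.88 to -0.32 and Atg5 at -3.29 to -1.08 over all 7 settings. Sqstm1 lay at -1.92 to -1.57 under 6 of them and at 0.39 with normexp correction. As above, settings that only scale whole arrays cannot change these distances.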

How the data were processed

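Intensity per spot was computed by Agilent Feature Extraction 9.5.1.1 with background subtraction and detrending, per the file headers. The deposited value table of the authors holds normalized intensity with tissues normalized separately, by a method not given in the sources used here. Set against the scanner values it is on a linear scale with a different factor for each array, and it served as an alternative. How that factor was chosen is unknown.

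Processed intensities as deposited were moved to the log2 scale, outlier spots left out, spots of a probe averaged, and the log2 of the array's 75th percentile subtracted. Of 41012 non-control probes, 16336 were named by accession, 3735 by symbol and 1099 by synonym, and 19842 kept the name in the file. Tests covered probes that all 3 arrays of some group held well above background, and the brightest such probe stood for its gene in each comparison, so that a gene can have another probe in ventricle than in blood. Ventricle and blood had separate fits in limma 3.58.1 under R 4.3.3, two-sided, and the threshold was 0.05 after Benjamini-Hochberg adjustment across every feature tested. A permutation test of 3 against 3 pools cannot go below p = 0.1. The number of arrays limits the precision.

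The genes, lists and tests were chosen with earlier results of these data known. Named were all 10 genes and up to 4 genes of each list past the threshold in a tissue (where none passed, at most 2, given as values only). For each gene that rose in the ventricle the 3 most similar features were also named, among those with a name by accession, symbol or synonym. Alternatives were other background corrections, scalings, filters and probe rules, slide or replicate as a block, and 1 pool left out. Normexp correction was run with an offset of 50. Sequences are from the array files (rn4) and RefSeq (GRCr8).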

Additional observations from a re-analysis of the deposited data

Results flagged for a closer look

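The drug difference differed between ventricle and blood, by the test of the difference itself (limma, 1 fit of 12 arrays, ventricle minus blood), for 8 genes by their brightest probe. It was 2.42 for Bnip3l, 2.37 for Atg5, 1.91 for Sqstm1, 1.55 for Gabarapl1 and 1.18 for Map1lc3a. It was -2.05 for Atg7. Map1lc3b had 2.36 at A_44_P180080, but -0.52 and -0.22 at its other probes, neither past the threshold. Becn1 had -0.60, a call lost under 6 of 11 other settings and in 9 of 12 fits without 1 pool. The share over all features tested was 51.3%.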

How the results depend on the processing

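Of the 4 genes that rose in the ventricle, Bnip3 kept its call under all 13 other settings. The count was 1 with no scaling, with no filter on dim probes and on the first slide alone, 2 with the replicate block (Gabarapl1 at adjusted p = 0.0677 and Atg13 at 0.0776 missed), 4 or 5 otherwise, and 2 to 4 without 1 pool. Over all features 1496 became 736, 292, 269 and 697 under those 4 settings in that order, and 525 to 1384 without 1 pool. The cause was not tested, except that the first slide alone has fewer arrays and no filter tests more features. Small ventricle differences turned sign: Atg7 to 0.024 with array median scaling, Becn1 to -0.0099 and Atg5 to -0.069 with no scaling. Without 1 pool Atg7 ranged from -0.22 to 0.19, turning to 0.09 without vehicle pool 3 and 0.19 without amiodarone pool 1, Becn1 from -0.020 to 0.21 and Atg5 from -0.021 to 0.16, both lowest without amiodarone pool 1. In blood normexp correction left 1 of 8 calls (1422 features in all, against 24675 with no filter), the count was 6 to 9 under the other settings, and no scaling turned Gabarapl1 to 0.81, Sqstm1 to 0.79 and Map1lc3a to 0.95. For the difference between tissues normexp correction and no scaling each gave 3 calls in place of 8, with Atg13 newly past the threshold under no scaling. All features called there were 1326 with normexp correction, 10268 with no scaling and 18899 with no filter. No scaling moved the median of all features from -0.43 to -2.16 and turned Gabarapl1 to -0.18, Map1lc3a to -0.55 and Atg13 to -1.44. Their distance to that median (1.98, 1.61 and 0.72) is unchanged by construction. Between vehicle tissues Sqstm1 turned to 0.14 with normexp correction, 1.36 with no scaling and 0.46 in the authors' value table, and Atg7 to 1.29 and 0.26 under the last 2. All features called there were 29796 with no filter and 8075 when above background on all arrays. The share of calls that were higher moved with the scaling, in ventricle from 30.6% (no scaling) to 64.4% (array median) and in blood from 19.1% (normexp) to 97.5% (no scaling), against 50.6% and 59.7% as reported. For the difference it was 36.9% as reported, 61.5% with normexp correction and 0.867% with no scaling, and between vehicle tissues 55.9%, 43.1% and 83.2%. The replicate block gave 8 of 9 genes in blood, 7 in the difference and 9 between tissues. Whether the numbers pair the pools cannot be told from 3 pools in each group. Deviations of same-numbered ventricle pools correlated at -0.17, -0.24 and 0.32 and of blood pools at 0.085, 0.17 and 0.31. Of the vehicle pools, 1 of 3 in ventricle and 2 of 3 in blood correlated best with the amiodarone pool of their own number.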
